A study of Bos taurus with 9 samples.

Results

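The insulin-like growth factor (IGF) family was followed while bovine ear fibroblasts were turned towards adipocyte-like cells by small molecules. Its 10 members were taken by name: the ligands IGF1 and IGF2, the receptors IGF1R and IGF2R, and the binding proteins IGFBP2, IGFBP3, IGFBP4, IGFBP5, IGFBP6 and IGFBP7. All 10 were found among the 21512 genes of the deposited table and all 10 passed the filter on low counts, which left 14020 genes. IGF1 passed it through the induced samples alone, since it had 2 to 4 counts in each fibroblast sample.

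RNA was sequenced in wild-type cells of 3 groups with 3 samples each. BEFs were ear fibroblasts on day 0, kept in DMEM with fetal bovine serum and given none of the compounds. CiADCs-3d and CiADCs-6d were chemically induced cells after 3 and 6 days in serum-free N2B27, a medium whose supplements contain insulin, to which 10 µM RepSox, 500 µg/mL VPA and 1 µM TTNPB were added. The targets of these compounds are the TGF-beta type I receptor kinase for RepSox, histone deacetylases for VPA, and the retinoic acid receptors, which TTNPB turns on. No fibroblasts kept for 3 or 6 days without the compounds were among the samples, so the compounds, the change of medium and time in culture cannot be told apart. The sources used here do not say whether samples of a group came from separate animals or inductions, so p-values measure the spread among these samples.

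IGF1 and IGF2 are secreted peptides that signal through IGF1R, a receptor tyrosine kinase, to promote growth, survival and, in preadipocytes, differentiation. IGF2R carries mannose 6-phosphate-tagged enzymes to lysosomes and also takes up and degrades IGF2. Binding proteins hold IGFs outside the cell, prolong their life and limit or release them to the receptor, and proteases that cut the binding proteins set IGFs free. IGFBP7 binds IGFs only weakly and is often placed among the IGFBP-related proteins.

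Library totals lay between 18509244 and 24071580 counts. Each induced library lay nearest to the mean of its own day, taken without that library, over all genes tested, but replicate 1 of both days lay between the days. The root mean square log2 difference of CiADCs-3d replicate 1 was 0.47 from its own day and 0.59 from day 6, and that of CiADCs-6d replicate 1 was 0.48 from its own day and 0.59 from day 3. The other 4 induced libraries lay 0.34 to 0.40 from their own day and 0.67 to 0.72 from the other. Among the members, replicate 1 was set against the means of replicates 2 and 3. CiADCs-6d replicate 1 was nearer to the day 3 mean for 5 of 10 genes, and CiADCs-3d replicate 1 was nearer to the day 6 mean for 2 of 10. This says little for IGF1R, IGF2R, IGFBP2 and IGFBP4, whose days differed by only 0.35, -0.18, -0.29 and 0.09 on the log2 scale in those replicates. IGFBP3, IGFBP5 and IGFBP6 were nearer to their own day in both. The share over all genes was not counted. Values without these 2 libraries are given beside the members' results where a call or a direction moved and for some fold changes, and for the lists beside their counts or in the closing section. Leaving them out was chosen after the data were seen. As both lay between the days, p-values between the days obtained without them are not independent tests.

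Most binding proteins and both ligands were higher in the induced cells, whereas neither receptor was called. Genes were called by edgeR's quasi-likelihood test when the p, adjusted by Benjamini-Hochberg, was under 0.05 and the log2 fold change was 1 or more in size. In CiADCs-3d against BEFs, 7 of 10 members were called higher and 0 lower, where 28.1% of all genes tested were called in either direction, 18.2% higher and 9.94% lower. By the adjusted p alone, without the limit on the fold, 9 were higher and 1 lower, and this rule called 60.0% of all genes tested, 30.9% higher and 29.1% lower. In CiADCs-6d against BEFs, 6 were called higher and 0 lower, where 35.3% of all genes were called, 21.9% higher and 13.4% lower. By the adjusted p alone, 7 were higher and 1 lower on day 6, where this rule called 67.5% of all genes, 35.6% higher and 31.9% lower. The median log2 fold change of the members was 1.56 on day 3 and 1.65 on day 6, and that of all genes tested was 0.01 and 0.03. IGF1, which passed the filter through the induced samples alone, is among the members called higher on both days. With at least 10 counts asked for in every sample, which leaves IGF1 out, 6 members were higher on day 3 and 5 on day 6. Of 12118 genes then tested, 1692 and 2071 were higher. Both days were set against the same 3 BEFs samples. The samples of CiADCs and BEFs did not overlap for 10 of 10 members on either day, but this also held for 70.5% of all genes on day 3 and 72.7% on day 6.

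**Figure D1:**
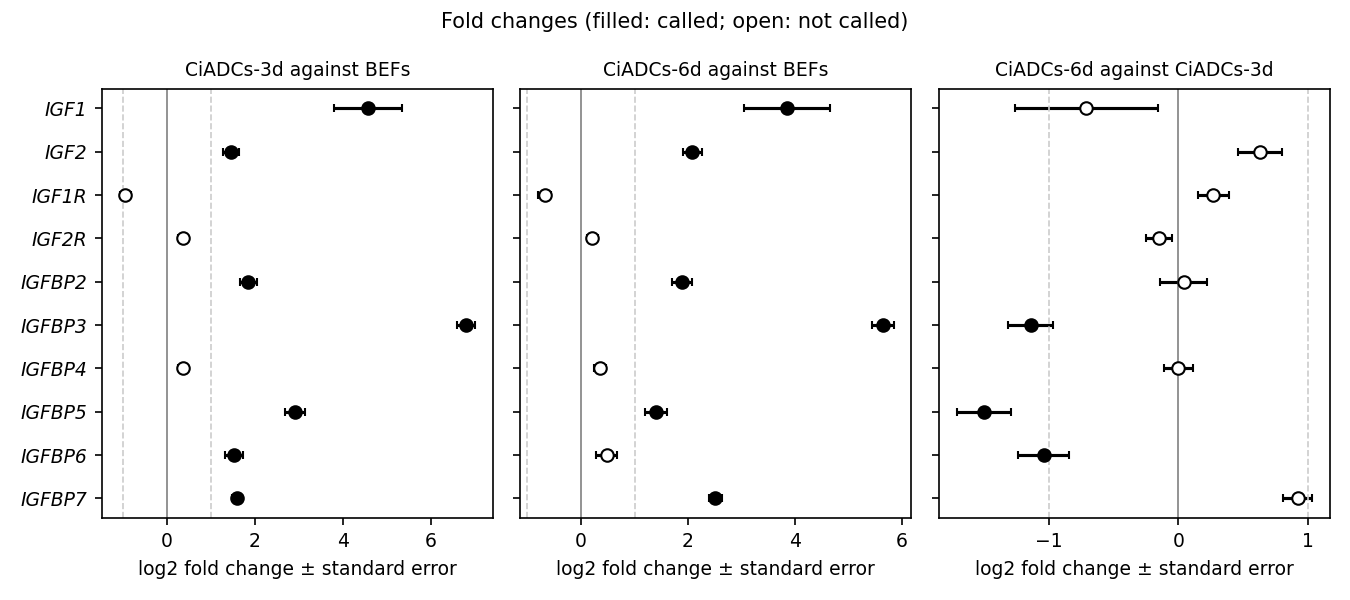
Log2 fold change (x axis, ± standard error) of each of the 10 members (y axis) in the 3 comparisons, from edgeR; filled points were called and dashed lines mark an absolute log2 fold change of 1. IGFBP3 lies farthest to the right in both comparisons with BEFs, at 6.79 and 5.64, and to the left, at -1.14, in CiADCs-6d against CiADCs-3d.

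The 2 ligands were the least abundant members in every group, and both rose in CiADCs. IGF1 (ncbi_281239), the main mediator of growth hormone action, had 18, 92 and 101 counts in CiADCs-3d, against 3, 4 and 2 counts in BEFs. In CiADCs-6d it had 81, 23 and 21 counts. The fitted log2 fold change was 4.57 ± 0.78 (SE, n = 3 samples per group, edgeR adjusted p = 0.000309) on day 3 and 3.85 ± 0.81 (adjusted p = 0.00113) on day 6. From the 211 counts summed over CiADCs-3d and the 9 counts summed over BEFs, with library sizes taken into account, the ratio was 25.3, with a 95% counting interval of 13.1 to 56.2. The 125 counts of CiADCs-6d gave a ratio of 15.2, with an interval of 7.76 to 34.1. These intervals cover counting error only, and the spread among induced samples was larger. The published study counts IGF1 among its adipocyte genes and reports it as raised in CiADCs by qRT-PCR. It also lists IGF1 among the genes higher in CiADCs-3d in its sequencing data.

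The samples numbered 1 stood out in IGF1. CiADCs-3d replicate 1 had 0.956 CPM (counts scaled to library size by TMM), beside 4.47 and 4.30 CPM in the other 2 samples of that day. CiADCs-6d replicate 1 had 3.73 CPM, beside 1.05 and 1.14 CPM in the other 2. Each of them had a level like that of the other day, so the days overlapped, and CiADCs-6d against CiADCs-3d gave a log2 fold change of -0.71 ± 0.55 (edgeR adjusted p = 0.351). Without both samples numbered 1 it was -2.05 (adjusted p = 0.000102, not an independent test), and the log2 fold changes against BEFs were 5.01 on day 3 and 2.97 on day 6. Without CiADCs-6d replicate 1 alone the difference between the days was -1.62 (adjusted p = 0.0359), and the fold change of day 6 against BEFs was 2.97 on the log2 scale. On limma's log2(FPKM + 1) scale, where a value this low weighs little, IGF1 on day 6 was 0.86 above BEFs and not called (adjusted p = 0.0769).

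IGF2 (ncbi_281240), a growth factor of fetal tissues and the product of an imprinted gene, had 10.8, 17.8 and 15.2 CPM in CiADCs-3d, against 6.15, 5.17 and 4.71 CPM in BEFs. In CiADCs-6d its 3 samples were almost equal, at 22.6, 22.4 and 22.7 CPM. The order BEFs, CiADCs-3d, CiADCs-6d held in every sample with no overlap. Log2 fold changes against BEFs were 1.45 ± 0.18 on day 3 (adjusted p = 2.48e-05) and 2.08 ± 0.18 on day 6 (adjusted p = 8.54e-07). CiADCs-6d lay 0.63 ± 0.17 above CiADCs-3d on the log2 scale, with an adjusted p of 0.0184 but a fold below the limit of the call. Per length, IGF2 was above IGF1 in each group's mean, at 1.40, 3.75 and 5.82 FPKM in BEFs, CiADCs-3d and CiADCs-6d, with IGF1 at 0.0867, 2.15 and 1.16 FPKM. FPKM, as deposited, is scaled to gene length as well as library size. IGF2 made up 94.0% ± 4.2 (SD, n = 3) of the summed FPKM of both ligands in BEFs, then 67.7% ± 16.6 in CiADCs-3d, and 84.9% ± 13.1 in CiADCs-6d, so the share was widely spread among induced samples.

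**Figure D2:**
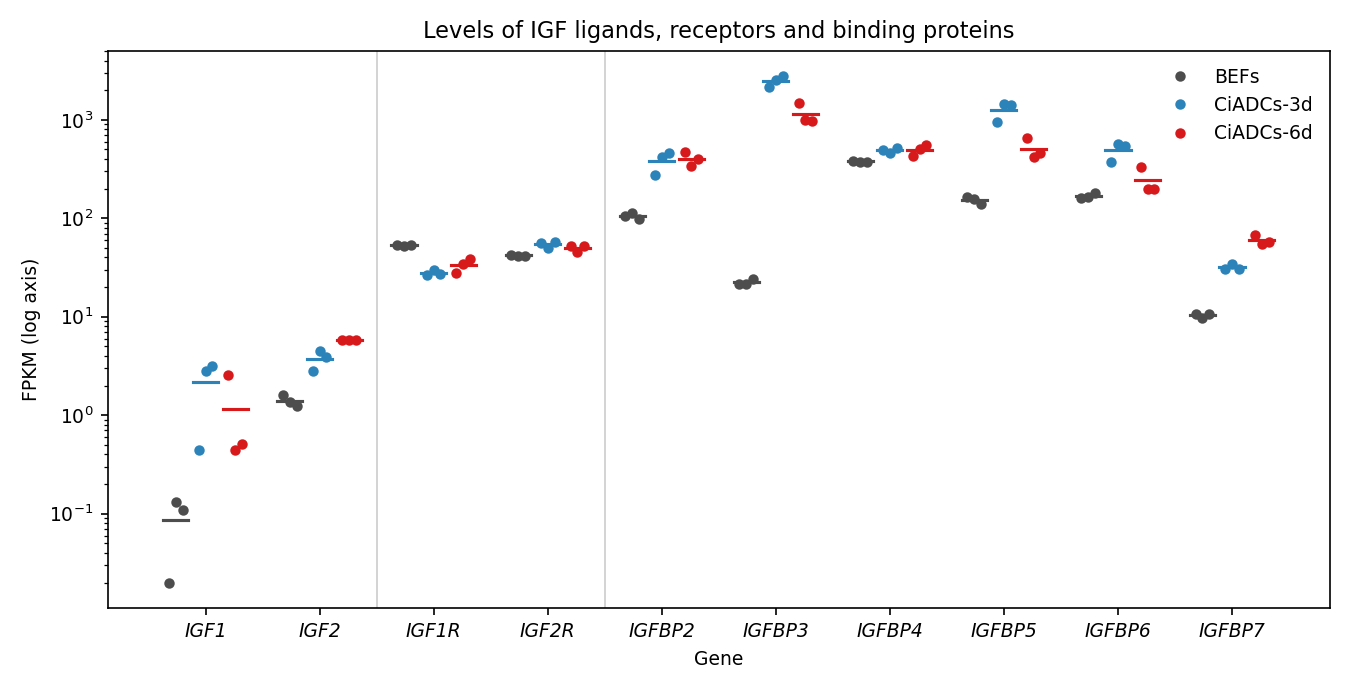
FPKM of each member (log axis) in every sample; points are samples, left to right replicates 1 to 3 of each group, and lines are group means (n = 3). Ligands are at the bottom, receptors in the middle, and IGFBP3 changes its place most, being the highest member in both CiADCs groups and having a mean of 22.4 FPKM in BEFs.

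The receptors had log2 fold changes of opposite sign, that of IGF1R being the larger. IGF1R (ncbi_281848), which transmits the IGF signal, had 113, 131 and 119 CPM in CiADCs-3d, against 234, 228 and 238 CPM in BEFs. In CiADCs-6d it had 119, 148 and 171 CPM. No induced sample reached any BEFs sample, and the spread was widest in CiADCs-6d. The log2 fold change was -0.94 ± 0.13 on day 3 (edgeR adjusted p = 3.97e-05) and -0.68 ± 0.12 on day 6 (adjusted p = 0.00042), both smaller than the call asks for. Without CiADCs-3d replicate 2, the value of day 3 was -1.01 and was called.

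IGF2R (ncbi_281849), the clearance receptor, had 496, 461 and 522 CPM in CiADCs-3d, against 390, 381 and 384 CPM in BEFs, and 466, 396 and 475 CPM in CiADCs-6d. Log2 fold changes were 0.36 ± 0.10 on day 3 (adjusted p = 0.0081, fold below the limit) and 0.21 ± 0.10 on day 6 (adjusted p = 0.0784). Set against each other per length, the order of the receptors turned round. The ratio of IGF2R to IGF1R in FPKM was 0.791 ± 0.018 in BEFs, then 1.97 ± 0.24 in CiADCs-3d, and 1.51 ± 0.33 in CiADCs-6d (SD, n = 3), and every induced sample was above every BEFs sample. Neither receptor differed between the days by the test, with log2 fold changes of 0.27 ± 0.12 for IGF1R (adjusted p = 0.13) and -0.15 ± 0.10 for IGF2R (adjusted p = 0.288).

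IGFBP3 (ncbi_282261), the main carrier of IGFs in blood, where it forms a ternary complex with the acid-labile subunit, had the largest change of the family. It had 5208, 6249 and 6816 CPM in CiADCs-3d, against 53.2, 52.2 and 60.2 CPM in BEFs, and 3565, 2327 and 2377 CPM in CiADCs-6d. The lowest induced sample was thus far above the highest BEFs sample. The fold changes were 110.3 on day 3 (log2 6.79 ± 0.21, edgeR adjusted p = 1.71e-10) and 49.9 on day 6 (log2 5.64 ± 0.20, adjusted p = 4.33e-10). By mean FPKM the gene stood at rank 3039 of 21512 in BEFs, at rank 12 in CiADCs-3d and at rank 51 in CiADCs-6d. CiADCs-6d lay below CiADCs-3d without overlap, with a log2 fold change of -1.14 ± 0.17 (adjusted p = 0.00077).

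The genes whose level over the 9 samples was most like that of a member were looked up among 9180 genes with at least 10 CPM on average, as the smallest root mean square difference of centred log2(CPM + 0.1). For IGFBP3 the nearest was Adamts15, a secreted metalloprotease, with a difference of 0.12. Its mean was 31.2 CPM in CiADCs-3d and 15.9 CPM in CiADCs-6d, against 0.177 CPM in BEFs. It thus passed the limit of 10 CPM only through the induced samples. At so low a level in BEFs the closeness of the match depends in part on the added 0.1. CCL2, a monocyte chemokine, came next at 0.33, with means of 1458 CPM in CiADCs-3d and 1074 CPM in CiADCs-6d, against 17.1 CPM in BEFs. For IGFBP5 the nearest were MAN1C1, a Golgi mannosidase, at 0.22 and OLFML1, a secreted olfactomedin-like protein, at 0.25. In BEFs these had means of 6.09 and 4.24 CPM, also under 10 CPM. TMEM234 and KIAA1522 held this place for IGFBP4, at 0.06 and 0.07.

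IGFBP5 (ncbi_404185), which binds to extracellular matrix as well as to IGFs, was second in level among the members in both induced groups. It had 2888, 4434 and 4290 CPM in CiADCs-3d, against 538, 536 and 476 CPM in BEFs, and 1844, 1091 and 1165 CPM in CiADCs-6d. Its log2 fold changes were 2.91 ± 0.22 on day 3 (adjusted p = 2.52e-07) and 1.40 ± 0.21 on day 6 (adjusted p = 6.7e-05). Without both samples numbered 1 the value of day 3 was 3.10. On day 6, replicate 1 lay 0.71 above the mean of the other samples on the log2 scale, so the day 6 fold change rests partly on it. IGFBP5 in CiADCs-6d fell to 0.353 of its CiADCs-3d level, with a log2 fold change of -1.50 ± 0.21 (adjusted p = 0.000538).

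IGFBP6 (ncbi_404186), a binding protein that prefers IGF2, had 354, 546 and 527 CPM in CiADCs-3d, against 159, 159 and 177 CPM in BEFs, a log2 fold change of 1.53 ± 0.21 (adjusted p = 4.61e-05). In CiADCs-6d it had 314, 185 and 193 CPM, all still above BEFs, but the log2 fold change of 0.48 ± 0.20 was not called (adjusted p = 0.0521). Without both samples numbered 1 it was 0.17. CiADCs-6d lay -1.04 ± 0.20 from CiADCs-3d on the log2 scale (adjusted p = 0.00363). This value sits at the limit of the call. It was -0.94, -0.97, -0.93 and -0.96 when replicate 2 or replicate 3 of CiADCs-3d, or replicate 2 or replicate 3 of CiADCs-6d, was left out, each with an adjusted p under 0.05 but a fold below the limit.

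The other binding proteins did not show this peak on day 3. IGFBP7 (ncbi_616368, written Igfbp7 in the table), the weak IGF binder, had 33.8, 38.8 and 34.4 CPM in CiADCs-3d, against 12.3, 11.1 and 12.1 CPM in BEFs. In CiADCs-6d it had 75.6, 60.4 and 65.9 CPM, and the 3 groups did not overlap. Log2 fold changes against BEFs were 1.59 ± 0.12 on day 3 (adjusted p = 2.22e-07) and 2.51 ± 0.12 on day 6 (adjusted p = 3.92e-09). Between the days it was 0.92 ± 0.11 (adjusted p = 0.000283), just short of the fold asked for.

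IGFBP2 (ncbi_282260), abundant in fetal tissues, had 257, 408 and 438 CPM in CiADCs-3d, against 103, 108 and 95.4 CPM in BEFs, and 442, 312 and 381 CPM in CiADCs-6d. Log2 fold changes were 1.85 ± 0.19 (adjusted p = 3.78e-06) and 1.89 ± 0.19 (adjusted p = 2.43e-06). The days overlapped and differed by 0.04 ± 0.18 on the log2 scale (adjusted p = 0.883). Without both samples numbered 1 this difference was -0.34 (adjusted p = 0.019), so its sign rests on those libraries.

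IGFBP4 (ncbi_282262), which restrains IGF action until PAPPA cuts it, was the most abundant member in BEFs and was not called. It had 1020.2, 964 and 1093 CPM in CiADCs-3d, against 818, 785 and 793 CPM in BEFs, and 887, 1016 and 1177 CPM in CiADCs-6d. The log2 fold change was 0.36 ± 0.11 on both days, with adjusted p = 0.0146 on day 3 and 0.0124 on day 6. The days differed by 0.00 ± 0.11 (adjusted p = 0.996).

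**Figure D3:**
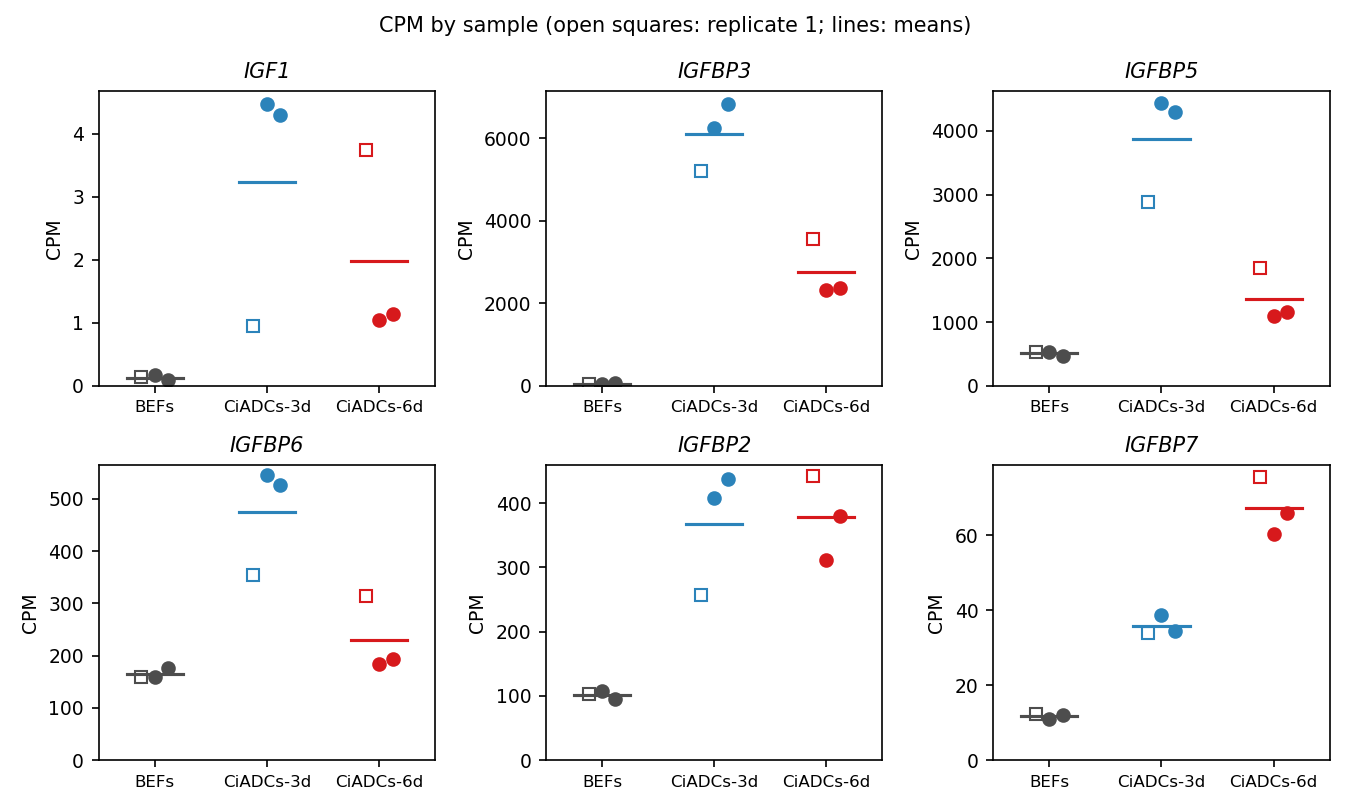
CPM (y axis, linear, from 0) of 6 members in each sample by group (x axis); open squares are replicate 1 and lines are group means (n = 3). IGFBP3, IGFBP5 and IGFBP6 are highest in CiADCs-3d, IGFBP7 in CiADCs-6d, and the IGF1 values of replicate 1 lie near those of the other day.

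Between the days, therefore, 3 of 10 members were called lower in CiADCs-6d against CiADCs-3d and 0 were called higher, where 7.31% of all genes tested were called in either direction, 3.22% lower and 4.09% higher. By the adjusted p alone, 2 were higher, IGF2 and IGFBP7, and 3 lower, where 28.0% of all genes passed, 14.4% higher and 13.6% lower. The samples did not overlap for 5 of 10 members, a pattern seen in 37.1% of all genes tested. The median log2 fold change of the members between the days was -0.07, and that of all genes was 0.01. Without both samples numbered 1, 4 members were lower, IGF1 being the one added, and 1967 genes in all were called in place of 1025. The log2 fold changes of IGFBP3, IGFBP5 and IGFBP6 between the days were then -1.52, -2.0 and -1.55.

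The family's make-up changed with these levels. Summed over IGFBP2 to IGFBP7, FPKM was 839 ± 12 in BEFs, and it was 5165 ± 763 in CiADCs-3d and then 2858 ± 514 in CiADCs-6d (SD, n = 3), or 0.192%, 1.14% and 0.616% of the FPKM of all genes. IGFBP4 held 45.0% ± 0.4 of this sum in BEFs, then 9.67% ± 1.67 in CiADCs-3d, and 18.0% ± 4.7 in CiADCs-6d. IGFBP3 held 2.67% ± 0.23, 48.6% ± 2.0 and 39.8% ± 3.3 in the same order, so the leading binding protein of the fibroblasts gave way to another although its own level did not pass the call.

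IGFBP5 kept a more even share, at 18.4% ± 1.2 in BEFs, then 24.3% ± 2.1 in CiADCs-3d, and 17.7% ± 1.2 in CiADCs-6d. IGFBP6 held 20.1% ± 1.4 of the sum in BEFs and 9.49% ± 0.81 and 8.36% ± 1.10 in CiADCs-3d and CiADCs-6d. The shares of IGFBP2 were 12.6% ± 0.8, 7.36% ± 0.86 and 14.1% ± 0.8 in BEFs, CiADCs-3d and CiADCs-6d. IGFBP7 held 1.24%, 0.622% and 2.14%. A member's share could thus be lower in CiADCs-3d while its level was higher, as for IGFBP2, IGFBP6 and IGFBP7.

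**Figure D4:**
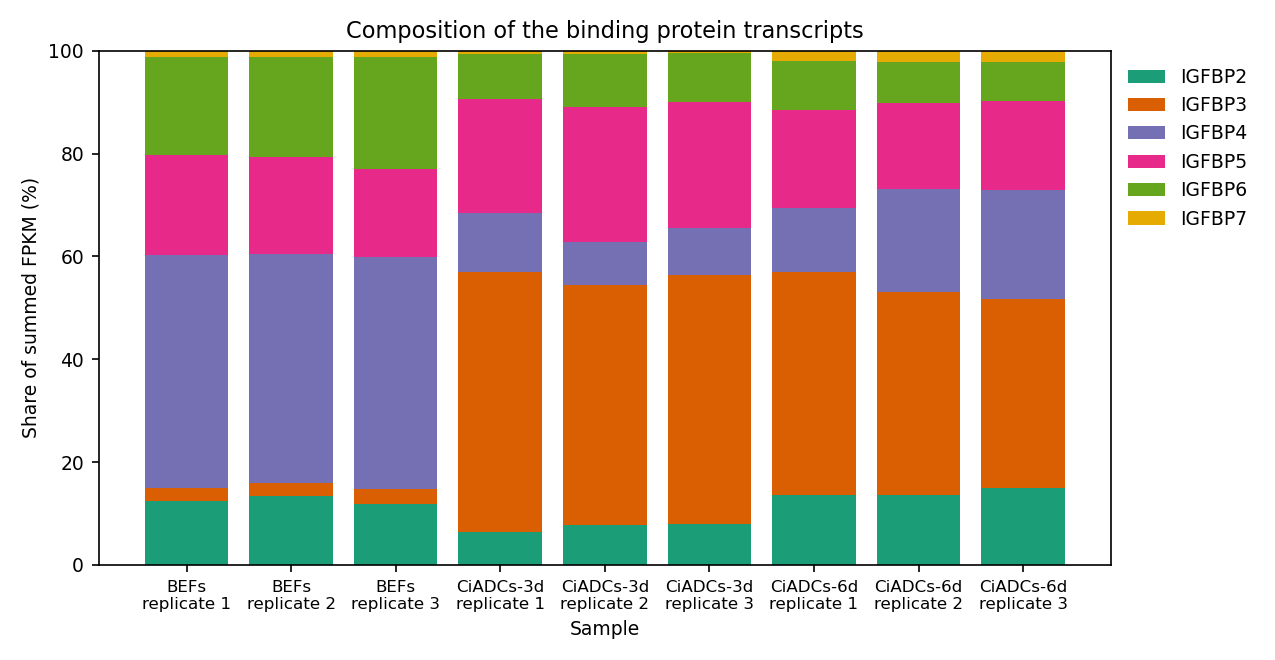
Share (%) of each binding protein in the summed FPKM of IGFBP2 to IGFBP7 (y axis), with 1 bar per sample. IGFBP4 fills 44.6% to 45.3% of the BEFs bars, and IGFBP3 fills 46.6% to 50.6% of the CiADCs-3d bars and 36.7% to 43.2% of the CiADCs-6d bars.

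Transcripts of the high-affinity binding proteins, IGFBP2 to IGFBP6, exceeded those of the 2 ligands in each sample. The ratio of their summed FPKM was 559 ± 47 in BEFs, then 951 ± 313 in CiADCs-3d, and 401 ± 8 in CiADCs-6d (SD, n = 3). The samples of CiADCs-6d lay between 392 and 408 and were all below BEFs, which lay between 515 and 609. CiADCs-3d samples were spread from 737 to 1310. The full separation of CiADCs-6d from BEFs holds per length only. With CPM in place of FPKM the ratio ranged from 210.0 to 267 in CiADCs-6d and from 266 to 334 in BEFs, which overlapped. The means kept their order in CPM, at 233 and 302. The overlap was that of CiADCs-6d replicate 1, at 267, with BEFs replicate 1, at 266.

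By mean FPKM, the order in BEFs was IGFBP4, IGFBP6, IGFBP5, IGFBP2, IGF1R, IGF2R, IGFBP3, IGFBP7, IGF2 and IGF1. Only IGFBP6 and IGFBP5 overlapped among neighbours in this order. In CiADCs-3d it was IGFBP3, IGFBP5, IGFBP6, IGFBP4, IGFBP2, IGF2R, IGFBP7, IGF1R, IGF2 and IGF1, with overlap between IGFBP6 and IGFBP4 and between IGF2 and IGF1. In CiADCs-6d IGFBP3, IGFBP5, IGFBP4 and IGFBP2 led, the last 3 of them overlapping from one to the next, and were followed without overlap by IGFBP6, IGFBP7, IGF2R, IGF1R, IGF2 and IGF1.

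IGFBP5 differed from the other members in how its FPKM and counts related. The length implied by the 2 units, that is library-scaled counts divided by FPKM, was 3.21 to 3.36 kb in BEFs, then 3.02 to 3.09 kb in CiADCs-3d, and 2.52 to 2.87 kb in CiADCs-6d. The mean was 7.1% shorter in CiADCs-3d and 18.2% shorter in CiADCs-6d than in BEFs, a size of change reached by 4.47% and 1.2% of 10308 genes. The other 8 members with enough counts changed by at most 4.6%. The length an estimator assigns to a gene depends on which of its transcripts the reads are given to, and the table gives no values per transcript.

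Genes that act on or beside the family were followed in lists taken from textbook knowledge. They can be read against the shares called among all genes, 18.2% higher and 9.94% lower on day 3 and 21.9% higher and 13.4% lower on day 6. Among 14 IGFBP proteases, their inhibitors and the partner of the ternary complex, 5 were higher and 3 lower on each day. IGFALS, the acid-labile subunit that binds IGFBP3 with IGF in blood, had 24.9 ± 10.2 CPM in CiADCs-3d and 14.2 ± 7.5 CPM in CiADCs-6d, against 0.577 ± 0.170 CPM in BEFs (SD, n = 3). Its log2 fold changes were 5.43 and 4.61 (edgeR adjusted p = 1.68e-06 and 5.59e-06). IGFALS was so low in BEFs that it passed the filter on low counts only with the induced samples, where it was high. PLAT, tissue plasminogen activator, had 1153 ± 385 CPM in CiADCs-3d and 1725 ± 462 CPM in CiADCs-6d, against 51.2 ± 1.8 CPM in BEFs, log2 fold changes of 4.49 and 5.08.

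The other proteases of the list went both ways. ADAMTS1 was higher, with log2 fold changes of 2.08 and 2.16, as was MMP2, at 1.03 and 1.76. PAPPA2 was lower on day 6, at -1.8, and HTRA1, ADAM9, PLAU and PCSK5 were not called on either day. All of these were named after their values were seen. ADAM12, which cuts IGFBP3 and IGFBP5 in humans, had 28.9 CPM in CiADCs-3d and 12.8 CPM in CiADCs-6d, against 70.9 CPM in BEFs, log2 fold changes of -1.29 and -2.46. HTRA3, a secreted serine protease, had log2 fold changes of -1.27 and -2.30. Named after their values were seen, PAPPA, the protease of IGFBP4, was not called, with log2 fold changes of -0.01 on day 3 and 0.42 on day 6, and its inhibitor STC1 was higher, at 2.93 and 3.44. The inhibitor STC2 was lower on day 3, at -1.16, and not called on day 6. The counts of this list on both days were the same without both samples numbered 1.

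Of 10 IGFBP-related proteins tested, 3 were higher and 1 lower on day 3, and 4 were higher and 2 lower on day 6. Among those higher on both days was IGFBPL1, named after its values were seen. With a mean of 0.0466 CPM in BEFs, it passed the filter through the induced samples alone. CCN2, a matricellular protein and a known target of TGF-beta, had 301 ± 52 CPM in CiADCs-3d and 648 ± 104 CPM in CiADCs-6d, against 1791 ± 105 CPM in BEFs, with log2 fold changes of -2.57 and -1.47. CCN1 was called higher on day 6 only, at 1.19, with 0.09 on day 3, and it differed between the days, at 1.11 (adjusted p = 0.000341). CCN3 was higher on both days, at 1.09 and 1.38, and CCN4 was lower on day 6, at -1.12. IGFBP1, which lies beside IGFBP3 in the bovine RefSeq annotation (ARS-UCD2.0), was too low to test. It had 0, 3 and 8 counts in CiADCs-3d and 7, 5 and 5 counts in CiADCs-6d, against 0 counts in each BEFs sample, where 3 counts are the limit that a count of 0 allows. It was named after its values were seen, as was TMEM219, annotated as a receptor for IGFBP3, which had log2 fold changes of -0.43 (adjusted p = 0.0253) and -0.73 (adjusted p = 0.000915) and was not called.

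Downstream of the receptor, few genes were called. Of 28 genes of insulin and IGF receptor signalling, 1 was higher and 2 lower on day 3, and 2 were higher and 2 lower on day 6, with medians of -0.20 and -0.02 on the log2 scale. RHEB, the GTPase that activates mTORC1, was higher at 1.72 and 1.81. IRS2, an adaptor of the insulin and IGF1 receptors, was 0.86 on day 3, not called, and higher at 1.81 on day 6. The kinase AKT1 was lower at -1.16 and -1.15, and SHC1, the adaptor that leads to Ras, was lower at -1.0 and -1.52.

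A list of FOXO factors and genes known as FOXO targets was mostly on the higher side. Of 14 FOXO factors and targets, 6 were higher and 0 lower on day 3 and 8 were higher and 0 lower on day 6, with medians of 0.84 and 1.03. Without both samples numbered 1, 7 were higher on each day. KLF15, named after its values were seen, is among those higher on both days in the main result. With a mean of 0.189 CPM in BEFs, it passed the filter only with the induced samples. PDK4, which inhibits pyruvate dehydrogenase, had 29.8 ± 3.3 CPM in CiADCs-3d and 23.6 ± 2.7 CPM in CiADCs-6d, against 1.21 ± 0.16 CPM in BEFs, log2 fold changes of 4.62 and 4.28. TRIB1, a pseudokinase, was higher at 2.83 and 3.90, TXNIP, which restrains glucose uptake, at 2.27 and 2.93, and the repressor BCL6 at 2.01 and 2.67. These genes also respond to signals other than FOXO factors. The factors themselves were named after their values were seen. FOXO1 had log2 fold changes of 0.07 and 0.04 and FOXO3 of 0.41 and 0.75, not called. FOXO4 had 0.91, not called, on day 3 and was higher at 1.04 on day 6, so it is among the 8 of that day. AKT activity was not measured, and a part of AKT or FOXO factors in these changes was not tested.

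**Figure D5:**
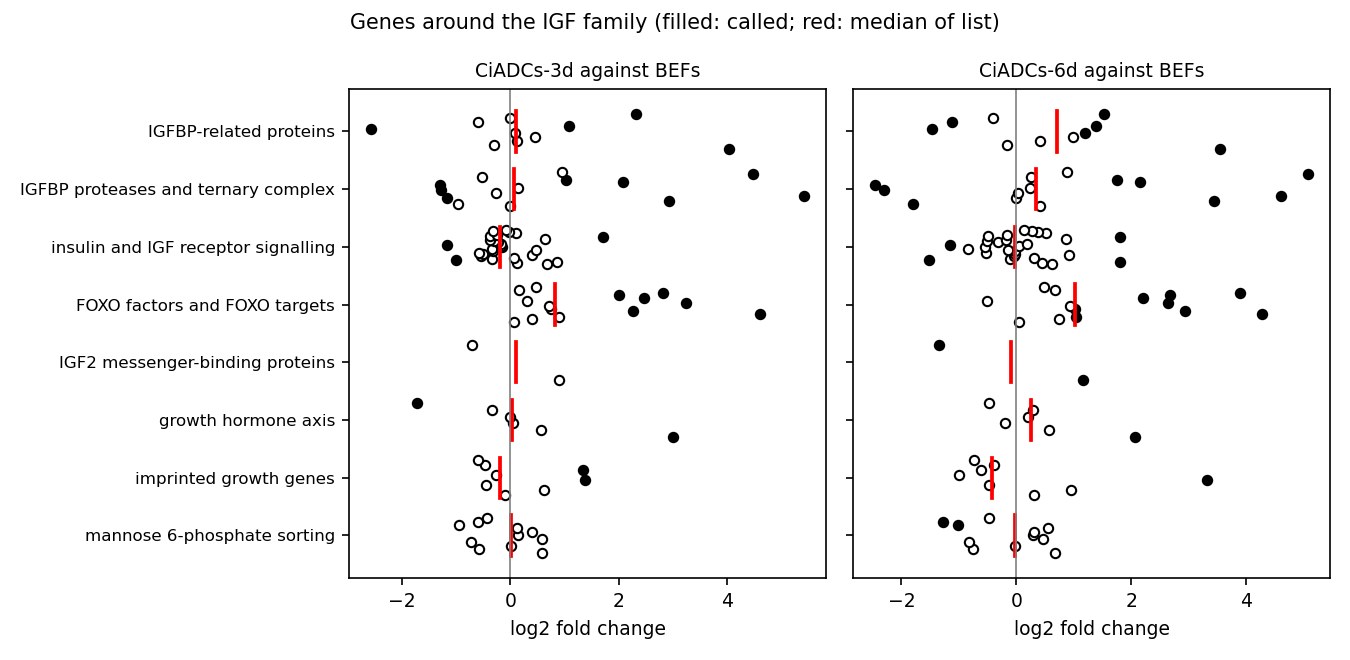
Log2 fold change (x axis) of every tested gene of 8 lists around the IGF family (y axis) in CiADCs-3d and CiADCs-6d against BEFs; filled points were called and red bars are list medians. Most FOXO points lie to the right of 0, with medians of 0.84 and 1.03, and those of receptor signalling lie on both sides, with medians of -0.20 and -0.02.

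The smaller lists gave single changes. In the growth hormone axis of 6 genes, 1 was higher and 1 lower on day 3, and 1 was higher and 0 lower on day 6. The gene higher on both days was GHR, the growth hormone receptor, with 15.4 ± 3.6 CPM in CiADCs-3d and 8.04 ± 2.38 CPM in CiADCs-6d, against 1.91 ± 0.09 CPM in BEFs, log2 fold changes of 3.00 and 2.07. Of 2 proteins that bind the IGF2 messenger, neither was called on day 3, and on day 6 IGF2BP2 was higher at 1.16 and IGF2BP3, named after its values were seen, was lower at -1.35.

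Imprinted genes other than IGF2 showed no common direction. Of 8 tested, 2 were higher and 0 lower on day 3, and 1 was higher and 0 lower on day 6. PEG3, a paternally expressed zinc finger gene, was higher on both days, at 1.39 and 3.32, and NNAT was higher on day 3, at 1.35, with -0.62, not called, on day 6. Of 11 genes that sort mannose 6-phosphate cargo, the other task of IGF2R, 0 were called on day 3, and 0 were higher and 2 lower on day 6. These were VPS35, of the retromer that recycles the receptor, at -1.28, and AP1M1, of a clathrin adaptor, at -1.01.

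Markers of cell types were read beside these results. The summed level of 14 fibroblast markers ranged from 25990.0 to 37770.0 CPM in CiADCs-3d and from 17590.0 to 23160.0 CPM in CiADCs-6d, against 64370.0 to 66850.0 CPM in BEFs, with 1 called higher and 6 lower on day 3 and 0 higher and 7 lower on day 6. FAP, VIM, COL1A1 and COL1A2 were lower on day 6, at -3.53, -3.06, -3.0 and -2.69 on the log2 scale. Most of the lower sum came from COL1A1, COL1A2 and VIM. The other 11 markers summed to 15820.0 to 21840.0 CPM in CiADCs-3d and 11920.0 to 15950.0 CPM in CiADCs-6d, against 16930.0 to 17740.0 CPM in BEFs, so that on day 3 they overlapped with BEFs, and the median log2 fold change of the 14 was -0.15 on day 3 and -0.85 on day 6. Named after their values were seen, S100A4 was higher on day 3, at 1.05, and PDGFRA had 0.90 on day 3, not called. In bulk samples, fewer cells of a type and less RNA per cell cannot be told apart.

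The adipocyte label was checked on 12 adipocyte markers, whose levels were low. They summed to 45.4 to 56.3 CPM in CiADCs-3d and 30.8 to 34.4 CPM in CiADCs-6d, against 27.9 to 35.6 CPM in BEFs. Of the 11 tested, 3 were higher and 3 lower on day 3, and 4 were higher and 2 lower on day 6. LPL was higher at 2.37 and 1.24, and PPARG at 1.68 on day 3, with 0.64, not called, on day 6. FABP4, the fatty acid carrier of adipocytes, was lower at -1.04 and -3.64, and its 10.9 CPM in BEFs weighs on the sum. The other calls, named after their values were seen, were at under 10 CPM. ADIPOQ was higher at 2.08 and 1.79, and on day 6 CEBPA and DGAT2 were higher, at 2.2 and 2.03. CIDEC was lower at -2.59 and -4.32, and SLC2A4 on day 3, at -1.96. CEBPA and DGAT2, with means of 0.522 and 0.411 CPM in BEFs, passed the filter only with the induced samples. CIDEC passed it only through BEFs. The published study also rests the label on lipid staining, qRT-PCR and Western blot.

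Among 5 endothelial markers, summed to 311 to 461 CPM in CiADCs-3d and 195 to 320.3 CPM in CiADCs-6d, against 12.3 to 18.2 CPM in BEFs, 2 of 3 tested were higher on day 3 and 1 on day 6. Nearly all of this was VWF, a clotting protein, at 5.57 and 4.98, while the defining markers CDH5 and KDR were near 0. The 5 leukocyte markers summed to 45.4 to 47.5 CPM in CiADCs-3d and 63.8 to 79.9 CPM in CiADCs-6d, against 1.17 to 1.78 CPM in BEFs, and 3 of 3 tested were higher on both days, led by CD14 at 6.01 and 6.56. CD14, and CD68 and CSF1R, named after their values were seen, had means of 0.659, 0.595 and 0.118 CPM in BEFs. They passed the filter on low counts only with the induced samples, so a call in the other direction was hardly possible. With both samples numbered 1 left out, 2 of 3 were higher on day 3 and 3 of 3 on day 6. PTPRC, carried by all leukocytes, had no count in any sample.

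The 6 keratinocyte markers summed to 25.3 to 35.9 CPM in CiADCs-3d and 42.9 to 51.8 CPM in CiADCs-6d, against 27.1 to 50.4 CPM in BEFs. Of 4 tested, 2 were higher and 1 lower on day 3, and 1 was higher and 0 lower on day 6, with TP63 higher at 3.02 and 2.79 and KRT5 lower on day 3, at -1.04, with 0.04 on day 6. The other gene higher on day 3 was KRT1, named after its values were seen. It had no count in BEFs and passed the filter through the induced samples alone. KRT5 was not called on day 3 without both samples numbered 1. The 5 melanocyte and Schwann cell markers summed to 29.7 to 39.2 CPM in CiADCs-3d and 30.3 to 39.7 CPM in CiADCs-6d, against 18.2 to 18.9 CPM in BEFs. Of these, 1 of 2 tested was higher on each day, MITF at 1.13 and 1.24, and TYR and DCT had no count. The part of such cells in the levels of the IGF family was not tested.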

How the data were processed

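The table deposited by the authors holds an expected count for each gene and sample, the estimated number of its reads, not normalized, and an FPKM value that the authors scaled to length and library size. Tools listed in the submitters' processing notes, with no role given, are RSEM, StringTie 1.3.1, HISAT2 2.2.4 and fastp 0.18.0, whereas the published methods name TopHat and HTSeq. The genome build is not given in the sources used here. The labels name rRNA removal and the published methods name enrichment by oligo(dT) for the libraries, and neither could be checked here.

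Expected counts of the 9 samples were rounded, filtered with filterByExpr (minimum count 10, minimum total 15), scaled by TMM and fitted together in edgeR 4.0.16 by quasi-likelihood, with 1 coefficient per group and Benjamini-Hochberg adjustment over 14020 genes. Of the 21512 genes, 7492 were removed. The standard error was obtained from the log2 fold change and the F statistic, as their ratio after taking the root of F. The pipeline was tested on simulated data. Alternatives were DESeq2 1.42.0, other scalings and filters, limma 3.58.1 on log2(FPKM + 1) or log2(FPKM + 0.1), a replicate block, only the 2 groups compared, and each sample left out. R 4.3.3 and Python 3.11.15 with matplotlib 3.10.9 were used.

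Members, lists and alternatives were chosen with earlier results of these data known. Genes named were the 10 members, from each list up to 4 genes called on either day with the largest day 6 fold change and at least 10 CPM on average in a group, and the 2 genes nearest in profile to each of the 3 members with the highest FPKM. Others are marked. The lists covered IGFBP-related proteins, proteases and the ternary complex, receptor signalling, FOXO targets, IGF2 messenger-binding proteins, the growth hormone axis, imprinted genes, mannose 6-phosphate sorting and markers of 6 cell types. H19 and MEG3 were not matched in the table. Identifiers starting with ncbi are the table's own. Sequences of the members were not used here.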

Additional observations from a re-analysis of the deposited data

How the results depend on the processing

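Of 219 values of the members' fold changes under 22 alternatives, 213 kept their direction and their side of the call in CiADCs-3d against BEFs, 215 in CiADCs-6d against BEFs and 194 in CiADCs-6d against CiADCs-3d. Genes called in all were 3945, 4949 and 1025 in these 3 comparisons. They were 2361, 3047 and 321 with limma on log2(FPKM + 1), 2370, 3067 and 315 with limma and no filter, and 8412, 9460 and 3923 by the adjusted p alone. Between the days, 619 genes were called with at least 10 counts in every sample, 678 with limma on log2(FPKM + 0.1) and 1967 without both CiADCs samples numbered 1, and 703 to 1492 with 1 sample left out. Of the calls between the days, 56.0% were higher, 69.8% with limma on log2(FPKM + 1), 44.2% without CiADCs-6d replicate 1 and 45.1% without both samples numbered 1, and 49.8% with upper-quartile scaling, so which direction held most calls was not stable. Members lower than BEFs were 0 in the main result and 1 by the adjusted p alone, on either day, and 0 to 1 on day 3 with 1 sample left out, the 1 being IGF1R. Members higher on day 6 than on day 3 were 0, and 2 by the adjusted p alone.

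All 17 reversals concerned IGFBP2 and IGFBP4 between the days, whose differences were near 0. IGFBP2 was -0.013 with upper-quartile scaling, -0.34 without both samples numbered 1, and between -0.20 and 0.18 with 1 sample left out, negative without replicate 1 of either day. IGFBP4 was -0.016 with DESeq2 size factors, -0.056 with upper-quartile scaling, -0.012 without a filter, -0.016 with DESeq2, -0.0042 with the 2 groups alone, and between -0.14 and 0.054 on the log2 scale with 1 sample left out. The cause of these changes was not tested.

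Replicate numbers are shared between the groups, and whether they pair the samples is not known. Deviations of same-numbered samples from their group means had correlations of -0.37 to 0.15. With 3 samples per group these values cannot settle it. With a replicate block, 3889, 4915 and 907 genes were called, IGFBP4 between the days was -0.0029, and the counts of members called were 7, 6 and 3. On limma's log2(FPKM + 1) scale IGF2 on day 3 was 0.97, below the fold of the call. Shares of the summed binding proteins depend on the unit. In CPM, IGFBP5 held 31.3%, 32.4% and 23.2% in BEFs, CiADCs-3d and CiADCs-6d. At 2 to 4 counts per BEFs sample, the fold change of IGF1 is limited by depth. Without both samples numbered 1, receptor signalling had 2 genes higher on day 3 and 3 lower on day 6, the fibroblast list had 2 higher and 5 lower on day 3, the adipocyte list had 4 higher on day 3, IGFBP-related proteins had 5 higher on day 6, the endothelial list had 3 higher on day 3, sorting had 3 lower on day 6, and the imprinted and the melanocyte and Schwann cell lists each had 1 lower on day 6.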
